A study of Mus musculus with 4 samples.

Results

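The transcripts of 50 genes of mitosis and chromosome segregation were followed across 4 arrays of mouse bone marrow-derived macrophages (BMDMs). The genes were listed by their known roles, from the cyclin-dependent kinase module to cytokinesis, and not by a threshold on measured values, although earlier results of these data were known when the list was made. All 50 had a probe among the 23660 genes that carry a symbol on the array, and where a gene had several probes, it was read from its brightest probe, judged by the average log2 level across the arrays. Each condition was measured on 1 array, so no difference has a replicate check, no test was possible and no p-value is given. The M2 array holds RNA of BMDMs labelled wild type, of C57BL/6J background, taken from mice aged 10 weeks, differentiated for 6 days with L929 supernatant (a source of M-CSF, the macrophage growth factor) and then kept for 2 days with IL-4 at 50 ng per ml. The M1 array holds cells of the same label after 2 days with the cytokine IFN-γ (20 ng/ml) and with LPS, the bacterial endotoxin (100 ng/ml). The KO array holds Lamtor1-deficient BMDMs with IL-4 at the same concentration. They come from Lamtor1 flox/flox mice with LysM-Cre, which deletes in myeloid cells, and lack the lysosomal anchor of the mTORC1 nutrient-sensing complex. The Torin1 array holds BMDMs labelled wild type and given IL-4 together with Torin1 at 250 nM, an ATP-competitive inhibitor of mTOR kinase. All 4 cultures thus share the 6 days in L929 supernatant and the 2 days of stimulation, and the study's methods use Lamtor1 flox/flox littermates without Cre as controls, and its supplement defines wild-type BMDMs as made from flox/flox marrow, though not for these arrays by name.

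Cells that divide switch on the genes of mitosis late in the cell cycle and silence them on leaving it. Cyclin-dependent kinase bound to B-type cyclins starts mitosis, the kinetochores and kinesins attach and move chromosomes on the spindle, a checkpoint delays anaphase until all are attached, and the anaphase-promoting complex then marks securin and cyclins for destruction before the cell is cut apart by cytokinesis. In resting cells the DREAM complex binds CHR elements and keeps these genes off, and in dividing cells MuvB with B-Myb and FoxM1 uses the same elements to switch them on, together with NF-Y on CCAAT boxes. BMDMs divide in response to M-CSF, and endotoxin is known to stop their division. mTORC1 couples nutrients and growth factors to cell growth and to entry into the cycle.

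The promoters are shown because these genes are known to share their control elements. RefSeq promoters (GRCm38.p6), from 250 bases before to 50 bases after the annotated transcription start, were matched by symbol for 41 of the 50 genes, and 9 (Aurkb, Ccna2, Cdc25c, Foxm1, Incenp, Kif20a, Smc4, Spc24 and Tpx2) had no entry in the table used here. Below stand the 150 bases before the start for 7 of them, read 5′ to 3′ on the strand of the gene, with matches to the CHR element (TTTGAA or TTCGAA), the CCAAT box and the E2F motif in capitals, on either strand, so that TTCAAA and ATTGG are reverse-strand matches. They are Cdk1 at chr10:69352913-69353062 on the minus strand, Ccnb2 at chr9:70421555-70421704 on the minus strand, Top2a at chr11:99024190-99024339 on the minus strand, Kif11 at chr19:37376232-37376381 on the plus strand, Ube2c at chr2:164769779-164769928 on the plus strand, Cdc20 at chr4:118437344-118437493 on the minus strand and Birc5 at chr11:117849087-117849236 on the plus strand. Cdk1, Top2a, Kif11, Ube2c and Cdc20 show a CHR element and a CCAAT box close together, Ccnb2 a row of CCAAT boxes, and Birc5 a window with no match.
Cdk1: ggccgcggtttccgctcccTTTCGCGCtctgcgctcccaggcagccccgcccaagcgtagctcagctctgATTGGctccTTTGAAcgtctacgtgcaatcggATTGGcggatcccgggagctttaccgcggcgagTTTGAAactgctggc
Ccnb2: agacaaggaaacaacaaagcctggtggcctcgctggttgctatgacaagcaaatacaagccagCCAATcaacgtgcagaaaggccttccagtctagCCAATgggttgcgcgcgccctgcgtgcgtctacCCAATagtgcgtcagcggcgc
Top2a: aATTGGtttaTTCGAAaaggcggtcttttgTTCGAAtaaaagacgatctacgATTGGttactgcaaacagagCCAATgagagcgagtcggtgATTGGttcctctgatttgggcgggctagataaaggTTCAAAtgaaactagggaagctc
Kif11: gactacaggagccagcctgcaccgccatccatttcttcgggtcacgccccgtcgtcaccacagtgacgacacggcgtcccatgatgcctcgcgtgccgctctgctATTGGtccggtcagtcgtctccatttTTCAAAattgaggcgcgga
Ube2c: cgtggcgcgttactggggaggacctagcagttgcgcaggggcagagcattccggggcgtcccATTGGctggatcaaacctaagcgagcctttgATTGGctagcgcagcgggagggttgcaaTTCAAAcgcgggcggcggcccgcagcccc
Cdc20: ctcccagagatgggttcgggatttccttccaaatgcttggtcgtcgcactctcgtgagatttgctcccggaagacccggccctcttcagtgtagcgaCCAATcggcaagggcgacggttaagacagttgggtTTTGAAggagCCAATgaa
Birc5: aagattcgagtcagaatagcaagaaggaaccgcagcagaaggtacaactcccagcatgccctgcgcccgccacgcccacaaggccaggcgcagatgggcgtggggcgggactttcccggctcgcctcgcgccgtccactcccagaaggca

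A CHR element was found in 31 of the 41 promoters (75.6%), against 19.2% of all 32851 promoters of the same length, and a CCAAT box in 31 (75.6%) against 37.4%. The letters TTTGAA alone were in 30 (73.2%, against 17.9%) and TTCGAA, which reads the same on both strands, in 3 (7.32%, against 1.56%). In 27 promoters (65.9%) both a CHR element and a CCAAT box were present, against 7.52% of all promoters, and 6 (14.6%) held none of the motifs searched, against 49.0%. An E2F motif (TTTGGCGC, TTTCGCGC, TTTCCCGC or TTCCCGCC, of which the last and the one before it can overlap) was in 4 promoters (9.76%, against 3.49%), those of Cdk1, Kif15, Ncapd2 and Ncapg. The matches lay near the start, and within 100 bases before to 50 after it a CHR element was found in 29 of 41 (70.7%, against 8.59%). In Ccnb2 the CCAAT boxes began 87, 54 and 21 bases before the start, and its CHR elements began 167 bases before and 5 bases after it, outside the stretch printed. The median log2 ratio for the 31 genes with a CHR element and the 10 without was −1.35 and −1.44 on Torin1, −0.65 and −0.74 on KO, and −1.29 and −1.32 on M1 (all over M2). On KO 10 of the 31 and 1 of the 10 were lower by 2-fold or more, where 8.74% of all genes on the array were. On Torin1 20 and 6 were, against 11.7%, and on M1 16 and 6, against 19.2%. A match of letters is a description and does not show that a factor binds there.

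**Figure D1:**
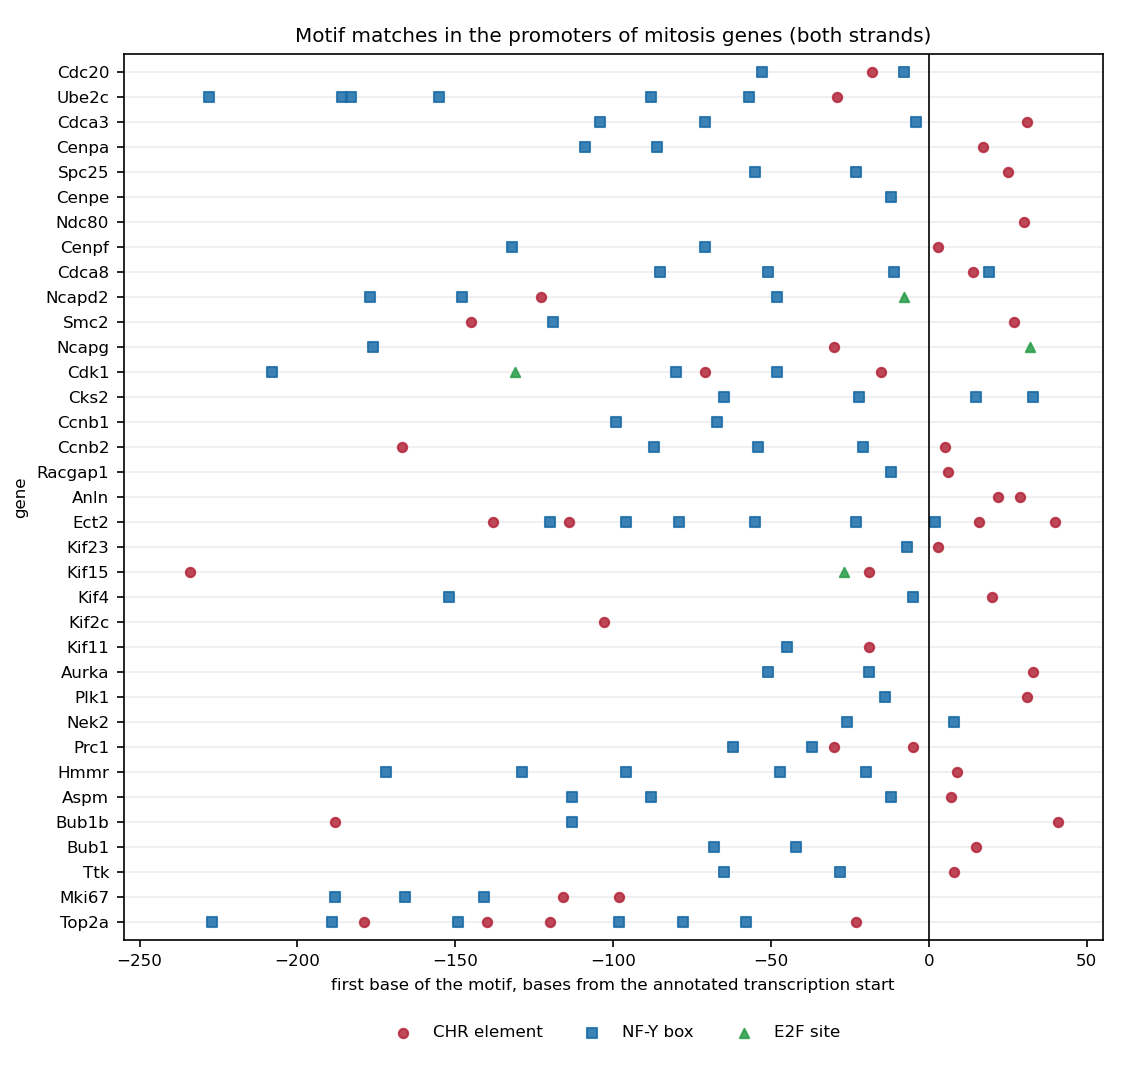
Positions of motif matches, on either strand, in the promoters of the 35 mitosis genes with at least 1 match, where the horizontal axis gives the first base of the match in bases from the annotated start (vertical line), and the rows are genes. Circles mark CHR elements, squares NF-Y (CCAAT) boxes and triangles E2F sites, and most circles lie between 100 bases before and 50 bases after the start.

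Values are normalized signals, that is the processed signal of a probe divided by the 75th percentile of its array, and a ratio between arrays is given on the log2 scale or as a fold. That percentile was 595 signal units on the M2 array, 536 on KO, 470.001 on Torin1 and 287 on M1. Of the 50 genes, 46 were well above background (brighter than the scanner software's limit for the local background) on M2, 44 on KO, 41 on Torin1 and 35 on M1, and 34 were so on all 4 arrays. Aurkb, Ncapg and Cdc25c were well above background on none, so their signals are given with no fold, although they enter the counts and medians over all 50. Where just 1 of a pair of arrays measured a gene above that limit, the fold is a bound, written as "at least", except for Ccnb2 on M1. Such a bound holds for the scaling to the 75th percentile and not with normexp background correction, an alternative that compresses the ratios of dim probes. For probes spotted at least 8 times and well above background, log2 ratios had a technical SD of 0.0899 (KO over M2), 0.0923 (Torin1 over M2) and 0.0984 (M1 over M2). It covers the scatter of repeated spots within an array, but not differences between arrays in labelling or hybridization, nor the culture. For such probes not well above background the SD was 0.309, 0.515 and 0.409. The targeted gene, 2400001E08Rik (Lamtor1), had a processed signal of 39460 on M2, 14688 on M1, 35232 on Torin1 and 833 on KO, where it was 42.7-fold lower than on M2 after scaling. The 8 macrophage markers looked at were well above background on every array. By 2-fold or more, 3 of them were lower than M2 on KO (median log2 ratio −0.63), 2 on Torin1 (0.06) and 2 on M1 (−0.03). Of all genes 8.74%, 11.7% and 19.2% were. The lowest log2 ratios among these markers were −4.96 on KO, −4.61 on Torin1 and −1.24 on M1.

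More mitosis genes were highest in M2 macrophages than in any of the other cultures. Of the 34 genes that every array measured above that limit, 19 had their highest signal on M2, 11 on M1, 3 on KO and 1 on Torin1. The lowest signal of these 34 was on Torin1 for 13, on M1 for 12, on KO for 8 and on M2 for 1, Pttg1, whose second probe was lowest on KO. Over all 50 genes, with signals near background included, 33 were highest on M2. How many of all genes were highest or lowest on each array was not counted, so these counts have no such frame.

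In Lamtor1-deficient macrophages the 50 genes were moderately lower, with a median log2 ratio over M2 of −0.64, or 64.1% of the M2 level (quartiles −1.09 and −0.32). Below M2 were 44 genes, where 8685 of all 23660 genes were. By 2-fold or more 14 were lower (28.0%), against 8.74% of all genes. Of these 14, 11 were well above background on both arrays. Only Kif23 and Ccnb1 were higher by 2-fold or more, or 4.0% against 8.88% of all genes. None was 4-fold lower. With normexp correction 4 genes were lower by 2-fold or more, where 4.18% of all genes were, namely Mki67, Top2a, Bub1b and Nusap1, and the median was −0.47.

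Torin1 left lower levels. The median log2 ratio over M2 was −1.32, or 40.1% of the M2 level (quartiles −2.10 and −0.65), and 30 genes (60.0%) were lower by 2-fold or more, where 11.7% of all genes were. Of these 30, 23 were well above background on both arrays. By size, 14 were lower by 4-fold or more and 5 by 8-fold or more. Only Pttg1 was higher by 2-fold or more, or 2.0% against 14.3% of all genes. With normexp correction 19 genes were lower by 2-fold or more, where 7.23% of all genes were, and the median was −0.75. These were Mki67, Top2a, Ccnb1, Ccnb2, Ccna2, Aurka, Bub1, Birc5, Plk1, Kif20a, Nuf2, Spc25, Prc1, Anln, Cdca3, Cdca8, Nusap1, Melk and Aspm.

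In M1 macrophages the genes were spread most widely. The median log2 ratio over M2 was −1.09 (quartiles −2.78 and 0.06), 25 genes (50.0%) were lower by 2-fold or more against 19.2% of all genes, and 5 (10.0%) were higher against 30.7%. The scaling matters here, since at the 75th percentile the median of all genes was itself 0.75 above M2, and relative to it the median of the mitosis genes was −1.84. For the 34 genes well above background on both arrays the median was −0.42 and 14 were lower by 2-fold or more, so 11 of the 25 rest on a probe near background on at least 1 array. With a shift to the median 31.7% of all genes were lower on M1 and 15.6% higher, and with quantile normalization 23.9% and 18.8%. For Torin1 the shift to the median gave 15.6% lower and 10.0% higher. The sign of the M1 ratio changed for 15 of the 50 genes under at least 1 of the 4 other scalings and background corrections. A shift to the median lowered the M1 ratio of every gene alike, so that genes given below as near M2 on M1 had log2 ratios of −0.89 (Aurka), −0.88 (Incenp), −0.98 (Bub1), −0.75 (Bub1b), −0.76 (Cdca8) and −0.76 (Prc1) under it. With normexp correction 16 genes were lower by 2-fold or more and 5 higher, where 14.5% and 26.4% of all genes were, and the median was −0.38.

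**Figure D2:**
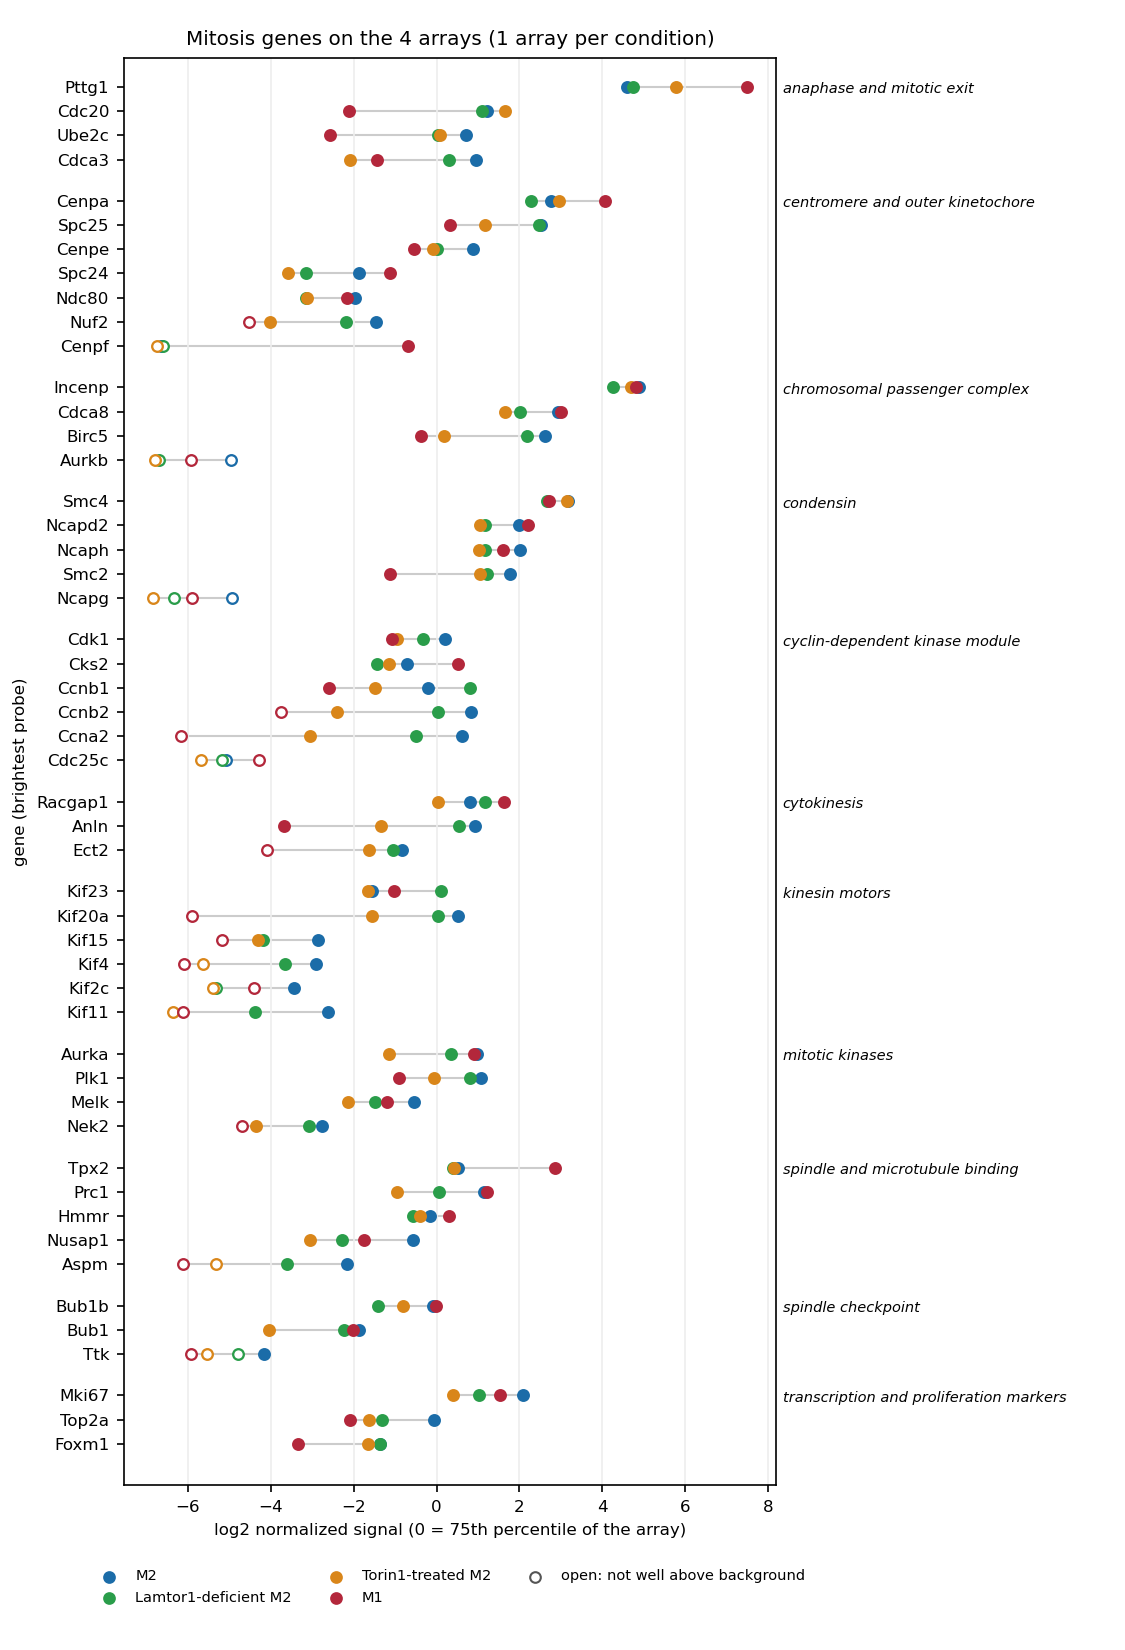
Level of each of the 50 mitosis genes on the 4 arrays, with the log2 normalized signal of the brightest probe on the horizontal axis (0 is the 75th percentile of the array), genes in rows grouped by role, 1 point per array, and open points where the signal is not well above background. M2 is the rightmost point for 33 of the 50 genes, and the M1 points range from the far left (Ccna2) to the far right (Pttg1).

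Markers of other cells also differed between the arrays, but not in the same way for each cell type. RNA of bulk cultures was measured, so fewer cells of a type and less RNA per cell cannot be told apart. Of 6 neutrophil marker genes measured, 6 were lower by 2-fold or more on KO, 5 on Torin1 and 6 on M1, and their summed normalized signal was 90.0 on M2, 6.06 on KO, 5.96 on Torin1 and 4.29 on M1. The sum was highest on M2, as were 19 of the 34 mitosis genes measured on all arrays. Of the 6, 6 were well above background on M2, 5 on KO, 6 on Torin1 and 3 on M1. Fibroblast markers (8 genes) had a summed signal of 43.7 on M2, 57.0 on KO, 15.7 on Torin1 and 16.4 on M1, and the erythroid markers (8 genes) lay at 0.702 on M2 and between 0.540 and 1.66 on the other arrays. Lymphocyte markers (8 genes) summed to 13.5 on M2, 13.8 on KO, 7.54 on Torin1 and 15.2 on M1, and progenitor markers (8 genes) to 2.69, 2.37, 1.79 and 0.796. Of the 8 lymphocyte markers 4 were well above background on M2, as were 4 of the 8 progenitor, 3 of the 8 erythroid and 8 of the 8 fibroblast markers. The part of such cells in the mitosis results was not tested.

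In the cyclin-dependent kinase module 4 of 6 genes were lower by 2-fold or more after Torin1, against 11.7% of all genes. Its cyclins parted ways in the knockout. Cdk1, the kinase that starts mitosis, had a normalized signal of 1.15 on M2, 0.794 on KO, 0.515 on Torin1 and 0.471 on M1, and with normexp correction it was just within 2-fold of M2 on Torin1 (log2 ratio −0.998). Ccnb2, a B-type cyclin that activates Cdk1, stood at 1.77 on M2, 1.02 on KO, 0.190 on Torin1 and 0.0742 on M1, where it was not well above background. That was 1.73-fold lower on KO and 9.33-fold lower on Torin1. On M1 it was 23.8-fold lower, the measured ratio and no bound, since its signal lay above the lowest one well above background. With normexp correction the log2 ratios were −2.49 on Torin1 and −2.53 on M1. Ccna2, the A-type cyclin of S phase and early mitosis, ran in the same order with 1.53, 0.707, 0.120 and 0.0139, or 2.16-fold lower on KO, 12.7-fold lower on Torin1 and at least 23.3-fold lower on M1 (with normexp log2 ratios of −2.75 and −2.96). Ccnb1, the main mitotic cyclin, did not follow them. Its signal was 0.871 on M2 and 1.75 on KO, which was 2.01-fold higher, against 0.356 on Torin1 (2.44-fold lower) and 0.164 on M1 (5.3-fold lower). All 3 probes of Ccnb1 were higher on KO than on M2, with log2 ratios from 0.49 to 1.006, and lower on Torin1, from −1.48 to −1.204. On M1 the 2 probes well above background on both arrays gave −2.41 and −0.82, the latter under 2-fold. The KO ratio was just past 2-fold and fell under it with normexp correction (0.90), with quantile normalization (0.97) and with the percentile over probes well above background (0.94). Cks2, a small subunit of the Cdk1 complex, was 0.611 on M2, 0.368 on KO and 0.453 on Torin1 but 1.44 on M1, where it was 2.35-fold higher (log2 ratio 0.41, under 2-fold, with a shift to the median). Cdc25c, a phosphatase that activates Cdk1, was near background throughout, with signals of 0.0296 on M2, 0.0274 on KO, 0.0196 on Torin1 and 0.0508 on M1.

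All 4 mitotic kinases listed were lower by 2-fold or more after Torin1, against 11.7% of all genes. With normexp correction all but Nek2 still were, against 7.23%. In the knockout none was, which is near the 8.74% of all genes. Aurka, the Aurora kinase of the spindle poles, measured 1.97 on M2, 1.28 on KO, 0.450 on Torin1 and 1.88 on M1, so Torin1 stood 4.36-fold below M2 and M1 within 1.05-fold of it. Plk1, the Polo-like kinase, was 2.10 on M2, 1.76 on KO, 0.953 on Torin1 and 0.537 on M1. Melk, a kinase of dividing cells, was 0.689, 0.354, 0.228 and 0.437 in the same order of arrays. Nek2, a kinase of centrosome separation, was dim, at 0.147 on M2, 0.119 on KO, 0.0487 on Torin1 and 0.0387 on M1, where it was not well above background. Torin1 was thus lowest for Aurka and Melk, and M1 for Plk1.

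The spindle checkpoint genes differed in which array was low. Bub1, a checkpoint kinase of the kinetochore, was 0.275 on M2, 0.214 on KO, 0.0608 on Torin1 and 0.247 on M1, and Torin1 stood 4.52-fold below M2 (log2 ratio −1.03 with normexp). Its probe was the only one of the 50 spotted repeatedly, and the processed signal, before scaling, was 163 ± 4.84 on M2 (SD over 10 spots), 115 ± 7.75 on KO (10 spots), 28.6 ± 2.02 on Torin1 (8 spots kept of 10) and 70.8 ± 6.48 on M1 (10 spots). Bub1b, which encodes the checkpoint protein BubR1, was lowest in the knockout instead, with 0.945 on M2, 0.374 on KO, 0.573 on Torin1 and 0.991 on M1. Ttk, which encodes the checkpoint kinase Mps1, was well above background only on M2, at 0.0560, and was at least 1.67-fold lower on Torin1.

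The genes of anaphase and mitotic exit differed in direction on Torin1 and M1. Cdca3, a trigger of mitotic entry that is destroyed on exit, was 1.94 on M2, 1.23 on KO, 0.236 on Torin1 and 0.371 on M1, or 8.22-fold lower on Torin1 (log2 ratio −2.44 with normexp). Cdc20, which activates the anaphase-promoting complex, was 2.32 on M2, 2.13 on KO and 3.12 on Torin1, and only M1 was low, at 0.232, which was 10.0-fold below M2. Pttg1, which encodes securin, the inhibitor of the enzyme that cuts sister chromatids apart, went the other way, with 24.2 on M2, 26.6 on KO, 54.7 on Torin1 and 179 on M1. Torin1 was 2.26-fold and M1 7.39-fold above M2, and the second Pttg1 probe had log2 ratios of 1.62 and 2.95 there. On KO the probes differed in sign, at 0.14 and −0.60. With a shift to the median the Torin1 ratio of Pttg1 was 0.93, below 2-fold. Ube2c, the ubiquitin-conjugating enzyme that works with the anaphase-promoting complex, was 1.64 on M2, 1.02 on KO, 1.06 on Torin1 and 0.168 on M1. Its probes disagreed for Torin1, since the second one was 1.06 on M2, 0.840 on KO and 0.117 on Torin1, with a log2 ratio of −3.18 against −0.63 for the brighter probe.

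Within the chromosomal passenger complex, which corrects faulty attachments and guides cytokinesis, the subunits differed. Birc5 (survivin) was 6.15 on M2, 4.52 on KO, 1.14 on Torin1 and 0.765 on M1, so Torin1 was 5.4-fold and M1 8.05-fold below M2, and its 3 probes gave Torin1 log2 ratios from −3.004 to −2.43. Cdca8 (borealin) was 7.60, 4.05, 3.13 and 7.95 on the same arrays, with M1 at the level of M2. Incenp, the scaffold of the complex, was within 1.54-fold of M2 on every array when scaled to the 75th percentile, at 29.5 on M2, 19.2 on KO, 25.8 on Torin1 and 28.3 on M1. Aurkb, the kinase of the complex, was not well above background, with 0.0323 on M2, 0.00957 on KO, 0.00896 on Torin1 and 0.0163 on M1.

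At the centromere and outer kinetochore, the Ndc80 complex, which grips microtubules, was low after Torin1. Spc25 was 5.77 on M2 and 5.53 on KO, against 2.26 on Torin1 and 1.26 on M1, so the knockout was within 1.04-fold of M2. Its partner Spc24 was 0.275 on M2, 0.113 on KO and 0.0835 on Torin1 but 0.456 on M1. Ndc80 itself was 0.257 on M2, 0.113 on KO, 0.114 on Torin1 and 0.223 on M1. Nuf2 was 0.365, 0.218, 0.0617 and 0.0435, the last not well above background, and 5.92-fold lower on Torin1 (log2 ratio −1.29 with normexp). The 4 subunits of this complex were therefore all lower by 2-fold or more on Torin1, whereas on KO only Spc24 and Ndc80 were. With normexp correction Spc24 and Ndc80 were within 2-fold of M2 on KO (log2 ratios −0.70 and −0.62) and on Torin1 (−0.80 and −0.55). Cenpe, a kinetochore kinesin, was 1.85 on M2, 1.00 on KO, 0.934 on Torin1 and 0.682 on M1. Cenpa, the histone variant that marks the centromere, was 6.74, 4.87, 7.77 and 16.8, and M1 was 2.5-fold above M2 (log2 ratio 0.50 with a shift to the median). Cenpf, a large kinetochore protein, was well above background only on M1, at 0.618 against 0.00992 on M2, 0.0103 on KO and 0.00934 on Torin1, or at least 17.0-fold higher than M2 (log2 ratio 2.58 with normexp).

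Condensin, which compacts mitotic chromosomes, was lower by less than 2-fold wherever it could be measured on KO and Torin1, but with a shift to the median Ncapd2 and Ncaph passed 2-fold on Torin1 (log2 ratio −1.22 for Ncaph). Ncapd2 was 3.98 on M2, 2.26 on KO, 2.06 on Torin1 and 4.597 on M1, and Ncaph was 4.01, 2.23, 2.04 and 3.03. Smc2, an ATPase subunit, was 3.42 on M2, 2.34 on KO and 2.06 on Torin1 but 0.457 on M1, which was 7.48-fold lower. Its partner Smc4 was 8.94, 6.40, 8.82 and 6.60, and was 1.014-fold lower on Torin1 than on M2. Ncapg was not well above background on any array, with 0.0328 on M2, 0.0124 on KO, 0.00876 on Torin1 and 0.0166 on M1.

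Of the 6 kinesin motors, 5 were lower by 2-fold or more on Torin1, against 11.7% of all genes. Of these 5, 2 were well above background on both arrays. With normexp correction only Kif20a was lower by 2-fold or more. Kif20a, a kinesin of the central spindle, was 1.44 on M2, 1.03 on KO, 0.338 on Torin1 and 0.0167 on M1, or 4.25-fold lower on Torin1 and at least 21.9-fold lower on M1 (log2 ratio −2.56 with normexp). Kif11, which pushes the spindle poles apart, was 0.161 on M2 and 0.0478 on KO, 3.38-fold lower (log2 ratio −0.66 with normexp), and not well above background on Torin1 (0.0121) or M1 (0.0143), so it was at least 4.81-fold lower on Torin1 and at least 2.46-fold lower on M1. Kif4, a chromosome-bound kinesin, was 0.132, 0.0796, 0.0202 and 0.0147, and Torin1 was at least 3.94-fold below M2. Kif15, a second spindle-pole kinesin, was 0.138, 0.0545, 0.0503 and 0.0274, the last not well above background. Kif2c, which takes microtubules apart, was 0.0925 on M2 and not well above background elsewhere, at least 2.47-fold lower on KO and at least 2.76-fold lower on Torin1. Kif23, a kinesin of the central spindle that acts in cytokinesis, stood apart. It was 0.338 on M2, 1.07 on KO, 0.318 on Torin1 and 0.491 on M1, so the knockout was 3.17-fold above M2, and this was above 2-fold at the 75th percentile and under the 4 other scalings and background corrections.

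Among the proteins that bind spindle microtubules, some transcripts were low and some hardly differed. Nusap1 was 0.676 on M2, 0.207 on KO, 0.120 on Torin1 and 0.295 on M1, or 3.27-fold lower on KO and 5.63-fold lower on Torin1 (log2 ratio −1.66 with normexp). Prc1, which bundles the central spindle, was 2.23, 1.04, 0.519 and 2.32, with M1 at the M2 level and Torin1 4.29-fold below it. Aspm, a spindle-pole protein, was 0.222 on M2 and 0.0823 on KO, and it was at least 6.62-fold lower on Torin1 and at least 3.38-fold lower on M1 (with normexp log2 ratios of −1.11 and −0.79). Tpx2, the activator of Aurora A, was 1.44 on M2, 1.32 on KO and 1.35 on Torin1 and differed by at most 1.09-fold among these, while its second probe was 1.56-fold lower on KO and 1.62-fold lower on Torin1. On M1 it was 7.22, and its probes disagreed in size there, with log2 ratios of 2.32 and 0.44. Hmmr, a spindle and hyaluronan-binding protein, was 0.894, 0.674, 0.762 and 1.23.

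The cytokinesis genes were close to M2 in the knockout. Anln (anillin), which organizes the contractile ring, was 1.90 on M2, 1.45 on KO, 0.396 on Torin1 and 0.0775 on M1, so Torin1 was 4.8-fold and M1 24.5-fold below M2 (log2 ratio −2.89 with normexp). Ect2, the exchange factor that switches on the ring, was 0.565, 0.479, 0.322 and 0.0586, the last not well above background. Racgap1, its partner in the centralspindlin complex with Kif23, was 1.75 on M2, 2.23 on KO, 1.03 on Torin1 and 3.09 on M1. It shared with Kif23 a higher signal on KO and on M1 than on M2, by 1.28-fold on KO and 1.77-fold on M1, but with a shift to the median the M1 log2 ratio was −0.28 for Kif23 and 0.0024 for Racgap1.

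Mki67 and Top2a, general marks of proliferation, were lower by 2-fold or more on KO and on Torin1, and Foxm1 was not. Mki67, the antigen Ki-67 that coats mitotic chromosomes, was 4.25 on M2, 2.03 on KO, 1.32 on Torin1 and 2.90 on M1, or 2.09-fold lower on KO, 3.22-fold lower on Torin1 and 1.46-fold lower on M1. Its second probe differed from these log2 ratios by at most 0.12. Top2a, the topoisomerase that untangles chromosomes, was 0.961, 0.401, 0.322 and 0.235. Foxm1, the transcription factor of the late cell cycle, was 0.386 on M2 and 0.386 on KO, 0.316 on Torin1 and 0.0992 on M1, and only M1 was lower by 2-fold or more (3.89-fold, but a log2 ratio of −0.83 with normexp correction).

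Set directly against the knockout, which leaves the M2 array out, Torin1 was the lower for 39 of the 50 genes and the higher for 11. Of all 23660 genes, 13354 were lower and 10306 higher. The median log2 ratio of Torin1 over KO was −0.54, where the median of all genes was −0.12. Lower by 2-fold or more were 18 genes (36.0%, against 11.6% of all genes), and 1, Pttg1, was higher (2.0%, against 12.8%). The 4 genes lower by 4-fold or more were Ccna2 (log2 ratio −2.56), Ccnb2 (−2.43), Cdca3 (−2.38) and Ccnb1 (−2.29). The cyclins were thus higher in the knockout than under Torin1, while Bub1b was higher on Torin1 (log2 ratio 0.62), as were Cenpa (0.67) and Cdc20 (0.55). With normexp correction 11 genes were lower by 2-fold or more and the median was −0.24. Of all genes, 18% were lower and 8.74% higher with a shift to the median, 9.41% and 15.8% with the percentile over probes well above background, and 7.01% and 4.75% with normexp. The knockout and the Torin1 ratios over M2 share the M2 array, so an error of that array would move both alike.

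The other lists of the pathway give the frame for these values. Of 65 other mitosis genes, 16 (24.6%) were lower by 2-fold or more on KO, 28 (43.1%) on Torin1 and 33 (50.8%) on M1. Of all genes 8.74%, 11.7% and 19.2% were. The medians of the 65 were −0.54, −0.67 and −1.05. Higher by 2-fold or more were 0, 5 and 10 of them, against 8.88%, 14.3% and 30.7% of all genes. Of the 65, Iqgap3, a scaffold protein of dividing cells, was 0.890 on M2, 0.221 on KO, 0.0463 on Torin1 and 0.206 on M1. Psrc1, a spindle-associated protein, was 0.492, 0.535, 6.39 and 1.46. Of 38 genes of DNA replication and S phase, 11 (28.9%) were lower on KO, 14 (36.8%) on Torin1 and 19 (50.0%) on M1. Higher were 1 (2.63%), 3 (7.89%) and 5 (13.2%), with the shares of all genes as above. The medians of these 38 were −0.44, −0.59 and −0.99. Tk1, the thymidine kinase of S phase, was 3.56 on M2, 1.03 on KO, 0.170 on Torin1 and 0.0924 on M1.

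The anaphase-promoting complex and cohesin stayed near M2 on KO and Torin1. None of the 13 anaphase-promoting complex subunits and none of the 9 cohesin genes, whose ring holds sister chromatids together, differed from M2 by 2-fold or more on either array, and the medians lay between 0.02 and 0.19. On M1, 3 subunits (23.1%) and 2 cohesin genes (22.2%) were lower by 2-fold or more, near the 19.2% of all genes, and 1 subunit was higher. Of 19 E2F, DREAM and MuvB factors, 0 were lower by 2-fold or more on KO, 2 of the 19 (against 11.7% of all genes) on Torin1 and 5 on M1, where 4 were higher, against 19.2% and 30.7% of all genes. The 2 on Torin1 were E2f2 (log2 ratio −3.10) and E2f1 (−1.72), both activators of S phase genes. Of 10 CDK inhibitors and D-type cyclins, 3 were lower and 2 higher by 2-fold or more on KO, 5 lower and 2 higher on Torin1, and 1 lower and 7 higher on M1, where 19.2% and 30.7% of all genes were (8.74% and 8.88% on KO, 11.7% and 14.3% on Torin1). Ccnd1, which drives entry into the cycle, was 18.5 on M2, 3.21 on KO, 0.807 on Torin1 and 18.9 on M1, and Cdkn1c, an inhibitor that halts it, was 0.875, 410.4, 74.7 and 4.72. The 10 reference genes had medians of 0.18 on KO, −0.06 on Torin1 and −0.28 on M1, and 0, 2 and 3 of them were lower by 2-fold or more.

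**Figure D3:**
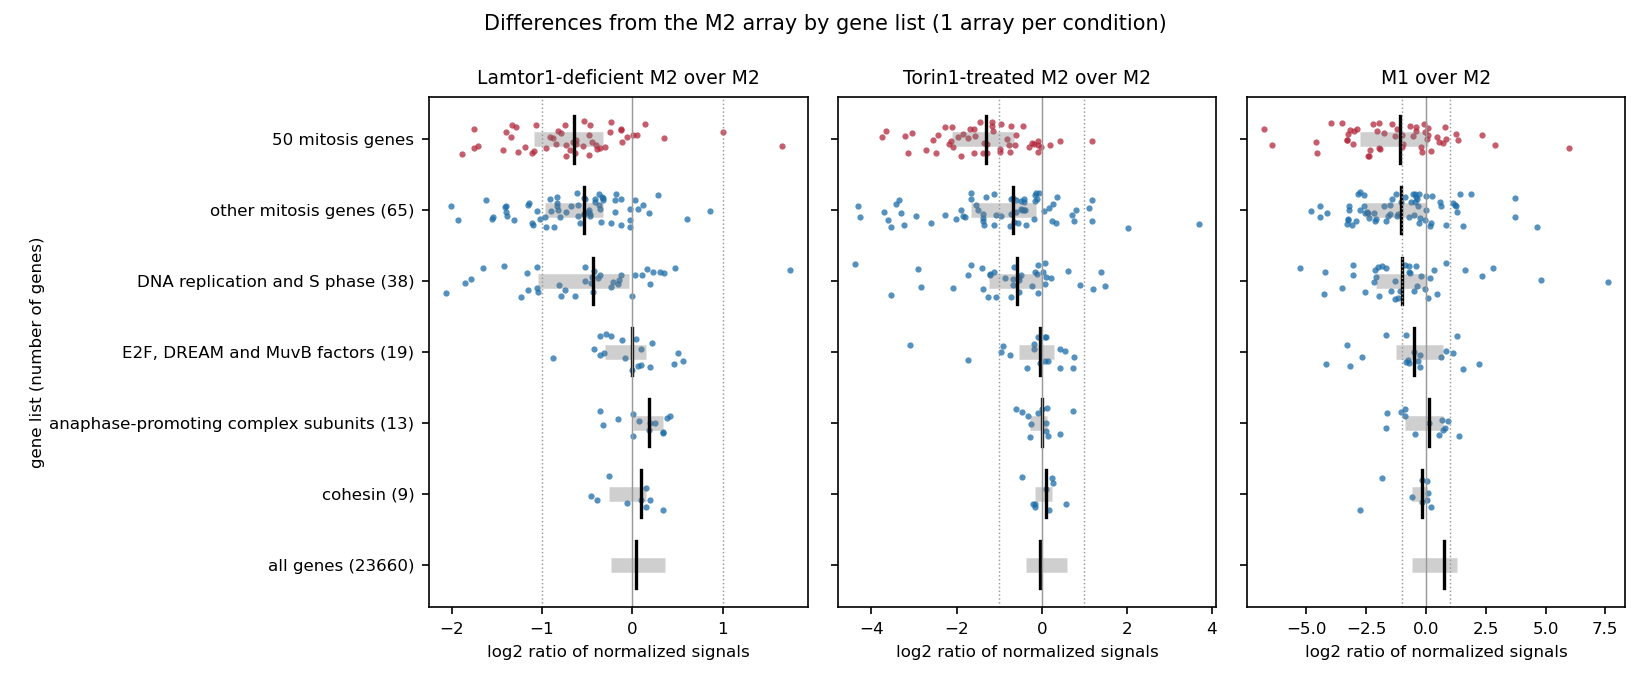
Log2 ratios of normalized signals over the M2 array for KO (left), Torin1 (middle) and M1 (right), 1 point per gene, with gene lists in rows, black lines for medians, grey bars for quartiles and dotted lines at 2-fold, each panel on its own horizontal scale. The 50 mitosis genes have medians of −0.64, −1.32 and −1.09, while the anaphase-promoting complex and cohesin lie within 2-fold of M2 on KO and Torin1, and all genes are drawn as quartiles only.

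Probes of the same gene show how far a single value can be read. Of the 50 genes, 36 had 1 probe, 11 had 2 and 3 had 3. Among the 14 with more than 1, all probes had the same sign for 11 genes on KO, 12 on Torin1 and 10 on M1, and lay on the same side of 2-fold for 12, 11 and 7. The median range between the probes of a gene was 0.27 on KO, 0.51 on Torin1 and 0.94 on M1 (log2), against a technical SD near 0.09 for a bright probe. The widest Torin1 ranges were those of Cdk1 (2.63), Ube2c (2.55) and Nuf2 (2.48), and in Cdk1 and Nuf2 the other probes were not well above background on both arrays. Incenp and Mki67 had the narrowest ranges there, 0.03 and 0.11.

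**Figure D4:**
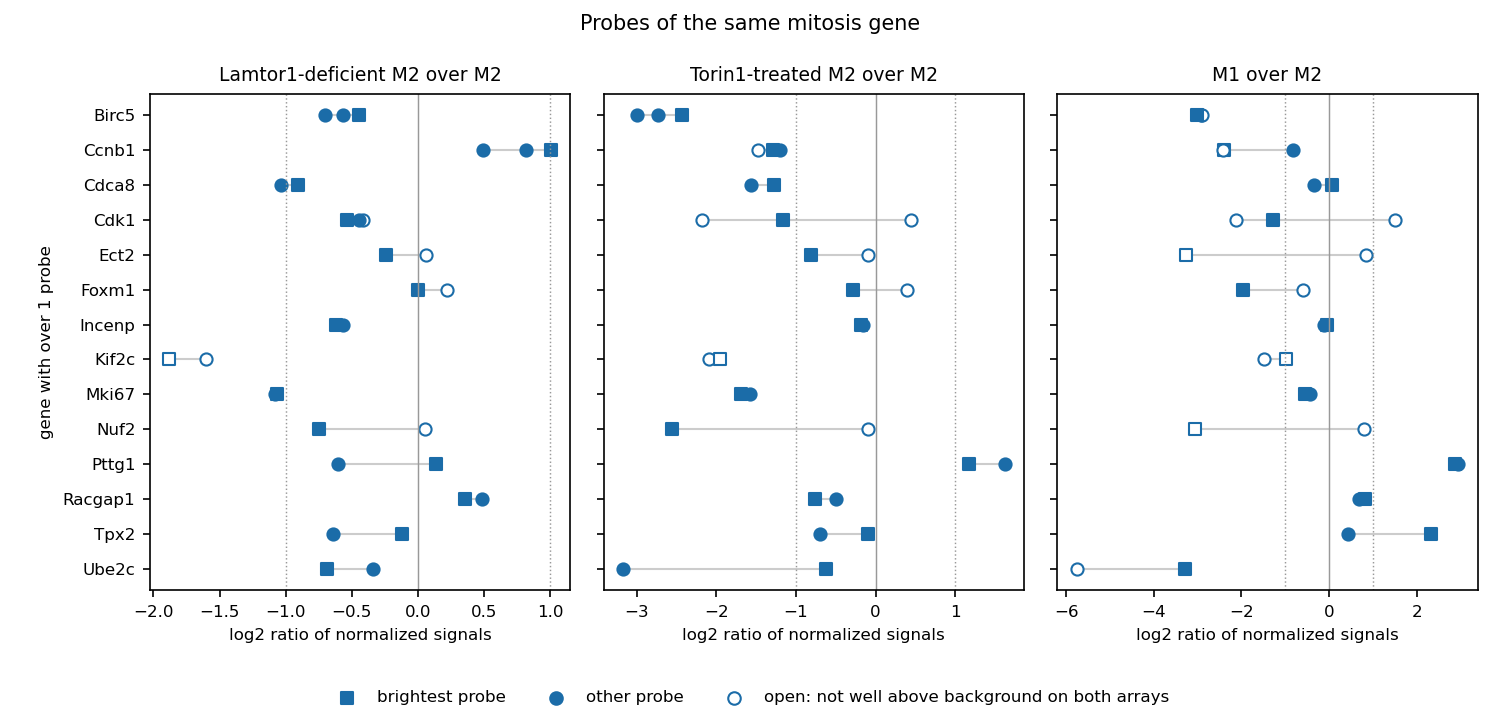
Log2 ratios over M2 of every probe of the 14 mitosis genes with more than 1 probe, for KO (left), Torin1 (middle) and M1 (right), each with its own scale, with squares for the brightest probe, circles for the others and open symbols for those not well above background on both arrays. The probes of Mki67, Incenp and Racgap1 lie close together, and those of Ube2c and Nuf2 lie far apart on Torin1.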

How the data were processed

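RNA of 4 BMDM cultures, 1 per condition, was amplified from oligo-dT primers, labelled with Cy3 and hybridized to Agilent mouse arrays of 1 slide. The authors deposited spot intensities, which Feature Extraction had background-subtracted and detrended, without scaling the arrays to each other. The file headers give its version as 10.7.3.1 and the labels as 10.5.1.1. A deposited series table was used as an alternative. As in the methods, intensities below 1.0 were set to it, each array was divided by its 75th percentile (control probes excluded), and log2 was taken. Control and outlier spots were dropped, and repeated spots averaged. A gene was counted as lower or higher from 2-fold. The text names every member and, from other lists, genes with large ratios. The members and lists were chosen with earlier results of these data known. Promoters came from RefSeq (GRCm38.p6). The procedure was tested on simulated data. Alternatives covered scaling, background, dim probes, probe choice and threshold. Elane, Ly6g, Ska2 and Ska3 were among the listed genes that gave no value. Tools were R (4.3.3), limma (3.58.1), Python (3.11.15), NumPy (2.4.6), pandas (2.3.3) and matplotlib (3.10.9). Having 1 array per condition limits precision.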

Additional observations from a re-analysis of the deposited data

Results flagged for a closer look

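Ccnb1 lay past 2-fold on opposite sides of M2 in the knockout and the Torin1 culture, where the log2 ratio over M2 was 1.006 without Lamtor1 and −1.29 under Torin1. The difference between them was not tested, since each condition had 1 array. The ratio in Lamtor1-deficient cells lay between 0.90 and 1.07 over the scalings and background corrections and was 0.82 as the median of its 3 probes.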

How the results depend on the processing

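No paired analysis was possible because each condition has 1 array, and for the same reason no replicate could be left out. The median of the mitosis genes stayed below 0 in all 4 comparisons under all 11 alternatives run for it. With normexp background correction, the genes lower by 2-fold or more numbered 4 on KO, 19 on Torin1, 16 on M1 and 11 for Torin1 over KO, with medians of −0.47, −0.75, −0.38 and −0.24, and 1 was higher on KO. With a shift to the median, the medians were −1.57 on Torin1, −1.91 on M1 and −0.85 for Torin1 over KO, and 0, 3 and 0 genes were higher. With quantile normalization, the medians were −1.72 on M1 and −0.64 for Torin1 over KO, and 1 gene was higher on KO. With the percentile taken over only those probes that all arrays measured above background, the median of Torin1 over KO was −0.39 and 1 gene was higher on KO. For genes well above background on both arrays compared, the medians were −1.17 on Torin1 and −0.42 on M1, where 14 were lower, and on at least 1 array −1.29 on M1. With dim signals raised to the lowest one well above background, the medians were −1.17 on Torin1, −0.60 on M1 and −0.41 for Torin1 over KO. The median over the probes of a gene left 1 gene higher on KO. At 3-fold, 4 genes were lower and 1 higher on KO, and 0, 3 and 0 were higher on Torin1, M1 and Torin1 over KO. Among genes past 2-fold, 3 dim ones changed sign: with normexp the log2 ratio was 0.0095 for Ncapg on KO and 0.36 for Ttk on M1, and with dim signals raised it was 0.04 for Ncapg and Aurkb on KO. Every other count stayed within 1.5 times its value in the report, and every other median within 1 technical SD. Under the 4 other scalings and background corrections, 343 of the single-gene ratios over M2 stayed within that SD and 255 moved by more, some of those under 2-fold across 0. Signal over background limits the genes that were well above background on none of the arrays (Aurkb, Ncapg, Cdc25c) or on 1 (Ttk, Kif2c, Cenpf).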
